A study of Homo sapiens with 5 samples.

Results

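The 10 genes described here are 9 tubulin genes and STMN1, taken by their symbols from the deposited table of normalized counts: 3 alpha tubulins (TUBA1A, TUBA1B and TUBA1C), 5 beta tubulins (TUBB, TUBB2A, TUBB3, TUBB4B and TUBB6), the gamma tubulin TUBG1 and STMN1, the gene for stathmin. All 10 were among the 26364 listed genes and among the 11313 that passed the filter for testing, a mean normalized count of at least 10. The table came from poly(A) mRNA-seq of IMR-90, a normal human lung fibroblast line, in which growing cells were harvested 24 hr after siRNA transfection. There were 5 libraries: 2 of cells given a control siRNA (Ctr-KD) and 3 of cells given siRNA against the histone H3 lysine 36 methyltransferase NSD2 (NSD2-KD), each with a different siRNA (NSD2-1, NSD2-2 or NSD2-3). Within NSD2-KD the siRNA and the library therefore cannot be told apart, and the same transfection and medium applied to all 5.

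Microtubules are polymers of a dimer of alpha and beta tubulin, each encoded by several genes whose products (isotypes) mix in 1 polymer. Gamma tubulin sits in ring complexes that start new microtubules, and stathmin binds free dimers and promotes the shrinkage of microtubules until it is phosphorylated as cells enter mitosis. Cells also adjust tubulin mRNA to the amount of free dimer: excess dimer leads to decay of alpha and beta tubulin mRNA on ribosomes, through recognition of the start of the new protein by TTC5. In fibroblasts, microtubules carry transport and shape the cell, and in mitosis they form the spindle.

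The sequences at issue in that decay are the first codons of the alpha and beta mRNAs, and they are shown so that the starts of the isotypes can be compared. Whether isotypes differ from each other in their response was not tested. Each line gives the first 30 coding bases of the canonical transcript on GRCh37, the assembly also called hg19 that the authors mapped to, with the start codon and the 3 codons after it in capitals.
TUBA1B: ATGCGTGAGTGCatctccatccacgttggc
TUBB: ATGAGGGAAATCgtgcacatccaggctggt
TUBB2A: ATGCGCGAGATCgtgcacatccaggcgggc
TUBB4B: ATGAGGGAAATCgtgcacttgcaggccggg
TUBB6: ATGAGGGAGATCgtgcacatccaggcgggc
STMN1: ATGGCTTCTTCTgatatccaggtgaaagaa
TUBA1A and TUBA1C have the same 30 bases as TUBA1B. TUBB and TUBB4B share their capitals with each other, and TUBB3 shares those of TUBB6. The capitals of all the beta genes encode the same amino acids, so they differ in bases only. STMN1, which is no tubulin, starts unlike all of them.

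Depth was similar between libraries, with 2473691 to 2845063 reads on genes, so that 1 read is worth 0.920 to 1.09 normalized counts and 3 reads, taken as the limit of detection, 2.76 to 3.28. The siRNA target, listed as WHSC1, had 463 and 443 normalized counts in Ctr-KD and 90.2, 81.9 and 87.9 in NSD2-KD, a log2 difference of -2.37 (adjusted p = 0.000464), so the targeted mRNA was low in each NSD2-KD library. The 2 Ctr-KD libraries differed by little more than counting noise (chi-square per degree of freedom 1.05 over 11352 genes, p = 0.000272). Pairs of a Ctr-KD and an NSD2-KD library stood at 4.11 to 5.43, and pairs within NSD2-KD at 5.38 to 5.65. The libraries of the 3 siRNAs were thus about as far from each other as from Ctr-KD. The spread within Ctr-KD is thus close to counting error alone, and without either of these libraries limma called no gene of the 11313. The 10 fibroblast markers had a summed normalized count of 216971 to 221946 in Ctr-KD and 202436 to 228278 in NSD2-KD. The summed epithelial markers had 77.2 to 89.5 in Ctr-KD and 90.2 to 121 in NSD2-KD, and the neuronal ones 9.53 to 12.3 and 21.8 to 23.4. Both were higher in every NSD2-KD library, but the closest epithelial sums, 89.5 and 90.2, differed by less than 1 read. MAP2 held most of the neuronal counts. Endothelial sums (130 to 141 and 99.6 to 156) and blood sums (2.06 to 2.86 and 0 to 2.18) overlapped. The part of these markers in the tubulin values was not tested. Of the other markers, 2 of 5 epithelial (KRT8 and CLDN4), 1 of 5 endothelial (TEK), none of 5 blood and 1 of 8 neuronal genes (MAP2) reached a mean of 10, and the defining markers PECAM1, CDH5, PTPRC, CD3E, ELAVL3, DCX and STMN2 were at 0 in every library.

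In NSD2-KD cells, 7 of the 10 genes lay below both Ctr-KD libraries in all 3 NSD2-KD libraries: STMN1, TUBA1A, TUBA1B, TUBA1C, TUBB, TUBB4B and TUBB6. None lay above. Over all genes tested, 13.9% lay below in this way and 13.8% above. By limma on log2(normalized count + 1), with adjustment over all 11313 genes, none of the 10 passed an adjusted p of 0.05, a threshold that 10 genes in all (0.0884%) passed. At an unadjusted p under 0.05, 5 of the 10 genes were lower (STMN1, TUBA1A, TUBA1B, TUBA1C and TUBB4B) against 4.99% of all genes, and no member was higher against 4.19%. The median log2 difference of the 10 genes was -0.29 beside -0.01 over all genes tested. edgeR and DESeq2 on the recovered reads also called no member. The members were picked with earlier results of these data known, so these counts describe them and are no independent support.

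**Figure D1:**
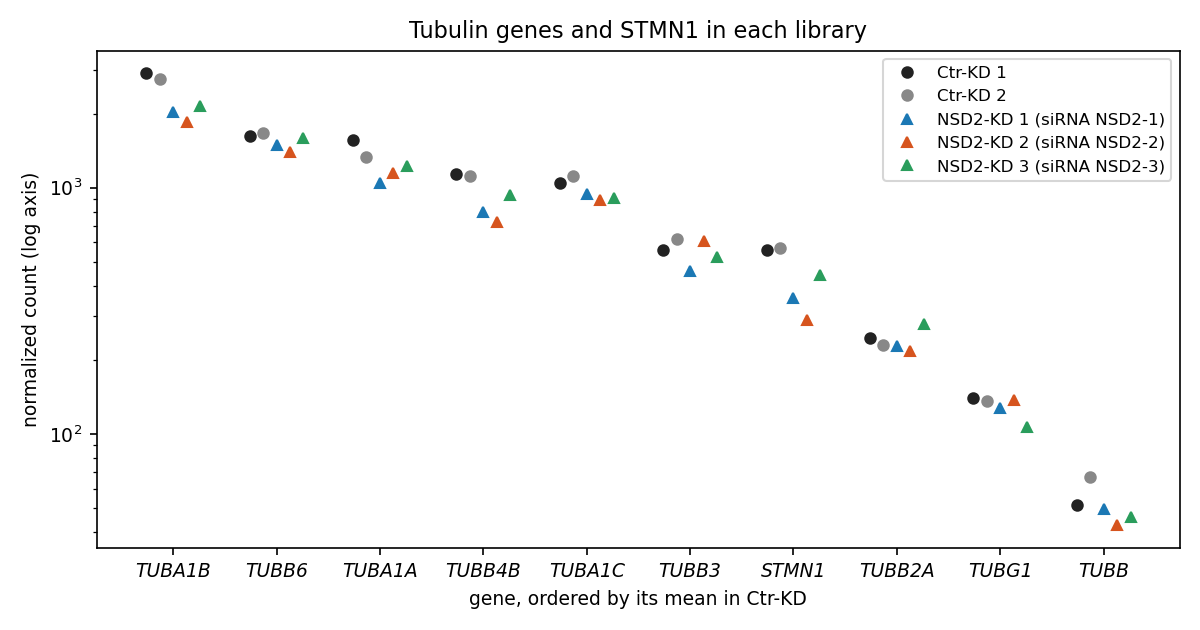
Normalized counts (log axis) of the 10 genes in each library, with circles for Ctr-KD and triangles for the 3 siRNAs of NSD2-KD. The triangles of STMN1, TUBA1A, TUBA1B, TUBA1C, TUBB, TUBB4B and TUBB6 all lie under both circles, and the NSD2-2 library is the lowest of the 5 for 7 genes.

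The widest gap was that of STMN1 (chr1:26210672-26233482, minus strand). It had 558 and 569 normalized counts in the Ctr-KD libraries and 355, 289 and 441 in NSD2-KD, in the order of the siRNA numbers as in all later sentences. All NSD2-KD libraries were lower, but they were far apart: NSD2-2 stood at 51.4% of the Ctr-KD mean, NSD2-1 at 63.0% and NSD2-3 at 78.3%. The means were 564 ± 7.54 (SD, n = 2) and 362 ± 76.1 (SD, n = 3), and the log2 difference was -0.66 (SE 0.17, 95% interval -1.04 to -0.28, unadjusted p = 0.00404, adjusted p = 0.267 by limma). Stathmin mRNA thus did not pass the test over all genes, although the interval for the single gene lies under 0. The neuronal stathmins STMN2 and STMN4 were listed at 0 in every library, and STMN3 had 50.5 and 53.5 in Ctr-KD and 46.9, 73.2 and 43.9 in NSD2-KD, with no separation of the groups.

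The 3 alpha tubulin genes lie side by side on chromosome 12, TUBA1B at chr12:49521565-49525180 and TUBA1A at chr12:49578469-49582863 on the minus strand and TUBA1C at chr12:49582519-49668383 on the plus strand. TUBA1B, the most abundant of the 10, had 2913 and 2773 normalized counts in Ctr-KD and 2036, 1857 and 2151 in NSD2-KD. Its NSD2-KD libraries stood close together at 65.3% to 75.7% of the Ctr-KD mean, and it ranked 37 of 11313 genes by unadjusted p (0.000558). The log2 difference was -0.50 (SE 0.09, 95% interval -0.71 to -0.29, adjusted p = 0.164).

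TUBA1A, the alpha isotype best known from growing neurons, had 1569 and 1336 in Ctr-KD and 1047, 1150 and 1220 in NSD2-KD. The groups did not overlap, but the gap between the 2 Ctr-KD libraries was wider than that between the lower of them and NSD2-3. Its log2 difference was -0.35 (SE 0.11, 95% interval -0.60 to -0.10, adjusted p = 0.365). TUBA1C had 1045 and 1113 in Ctr-KD and 947, 888 and 908 in NSD2-KD, again without overlap, with a log2 difference of -0.24 (SE 0.09, 95% interval -0.44 to -0.04, adjusted p = 0.452). The 3 alpha genes differ little in sequence: of the windows of 150 bases, the read length, in the canonical transcript, 19.1% in TUBA1B, 8.01% in TUBA1A and 7.22% in TUBA1C had an exact copy elsewhere, nearly all of them in another of the 3 genes. TUBA1A and TUBA1C also overlap at their ends on opposite strands, and the strand setting of the counting is not given in the sources used here. The other tubulin members except TUBB3 overlap an annotated gene on the other strand too, among them TUBB4B (FAM166A) and TUBB6 (AFG3L2).

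Of the beta tubulins, TUBB4B (chr9:140135739-140138159, plus strand), which is expressed in nearly all tissues, differed most. It had 1134 and 1116 normalized counts in Ctr-KD and 793, 723 and 933 in NSD2-KD. All NSD2-KD libraries were lower, NSD2-2 most, at 64.3% of the Ctr-KD mean, and NSD2-3 least, at 83.0%. The log2 difference was -0.47 (SE 0.12, 95% interval -0.74 to -0.20, adjusted p = 0.267). TUBB6 (chr18:12307668-12344319, plus strand), the most abundant beta isotype by count, had 1627 and 1663 in Ctr-KD and 1490, 1396 and 1592 in NSD2-KD. It lay lower in all 3, but NSD2-3 stood at 96.8% of the Ctr-KD mean, and the log2 difference was -0.14 (95% interval -0.35 to 0.06, adjusted p = 0.696). Neither gene has an exact copy of any 150-base window elsewhere.

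TUBB3 (chr16:89987800-90005169, plus strand), the beta isotype used as a marker of neurons, was present in these fibroblasts at 561 and 621 normalized counts in Ctr-KD and 457, 607 and 521 in NSD2-KD. NSD2-2 lay between the Ctr-KD libraries, so the groups overlapped (log2 difference -0.17, 95% interval -0.48 to 0.14, adjusted p = 0.765). That difference was -0.07 without NSD2-1 and -0.27 without NSD2-2. A readthrough gene is annotated over the same exons on the same strand, so its reads cannot be told from those of TUBB3. TUBB2A (chr6:3153731-3157778, minus strand) had 245 and 230 in Ctr-KD and 227, 216 and 280 in NSD2-KD. NSD2-3 was the highest of the 5 libraries and NSD2-2 the lowest, and the log2 difference was 0.01 (95% interval -0.31 to 0.34, adjusted p = 0.986). Of its 150-base windows, 48.7% had an exact copy elsewhere, mainly in TUBB2B, which itself had 54.3 and 43.2 in Ctr-KD and 43.2, 31.7 and 47.8 in NSD2-KD.

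TUBB (chr6:30685212-30693315, plus strand) is usually an abundant beta tubulin in dividing cells. Here it had only 51.4 and 66.9 normalized counts in Ctr-KD and 49.7, 42.6 and 45.9 in NSD2-KD, from 39 to 65 reads. The NSD2-KD libraries were lower in all 3, with NSD2-1 close under the lower Ctr-KD library. Those 2 libraries both had 54 reads, so the gap between them comes only from the size factors. The log2 difference for TUBB was -0.35 (SE 0.20, 95% interval -0.80 to 0.11, adjusted p = 0.664). It was -0.53 without the first Ctr-KD library and -0.16 without the second. The level itself is in doubt, since TUBB lies in the major histocompatibility complex and its neighbours were also near 0. Of 68 other protein-coding genes within 1 Mb, 4 (5.88%) had a mean normalized count of at least 10 and the median was 0. Of the 18014 other protein-coding genes, 56.2% reached 10, with a median of 22.6. The authors kept uniquely mapped reads, and why counts are low in this region was not tested. ATAT1, the alpha tubulin acetyltransferase, and PFDN6, a prefoldin subunit, lie on the same arm of chromosome 6 and were at 0 in every library. Without TUBB, 6 of 9 genes lay below both Ctr-KD libraries.

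**Figure D2:**
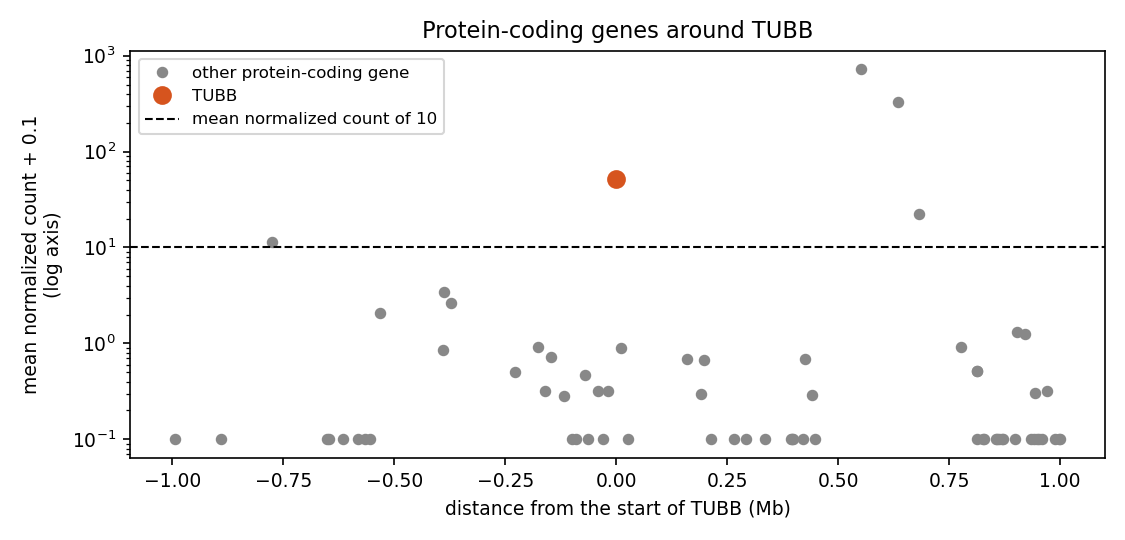
Mean normalized count plus 0.1 (log axis) of each protein-coding gene within 1 Mb of TUBB against its distance from the start of TUBB in Mb. Only 4 of 68 neighbours lie above the dashed line at a mean of 10, and most lie at the bottom of the axis.

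TUBG1 (chr17:40761659-40767256, plus strand), the main gamma tubulin, had 140 and 136 normalized counts in Ctr-KD and 128, 138 and 106 in NSD2-KD. NSD2-2 lay between the Ctr-KD libraries and NSD2-3 was the lowest, and the log2 difference was -0.16 (95% interval -0.51 to 0.19, adjusted p = 0.813). Without NSD2-3 it was -0.06. The order of the 3 siRNAs therefore differed between genes. NSD2-2 was the lowest of the 5 libraries for 7 of the 10 genes, NSD2-1 for TUBA1A and TUBB3, and NSD2-3 for TUBG1. Over all genes tested NSD2-2 was the lowest library for 24.7%, and among those that lay below both Ctr-KD libraries in all of NSD2-KD, for 47.4%.

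**Figure D3:**
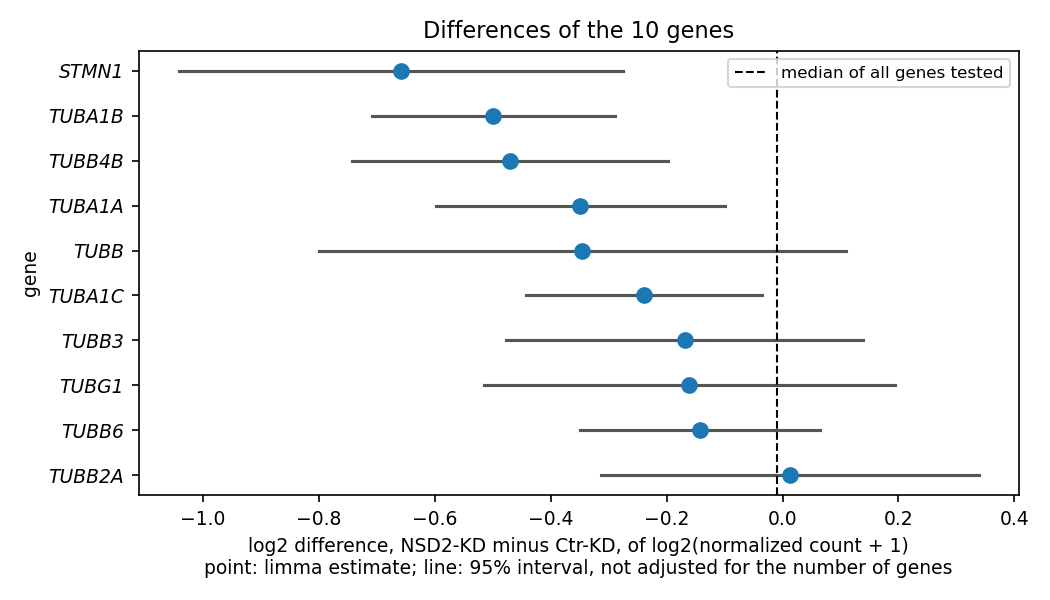
Log2 difference (NSD2-KD minus Ctr-KD) of each of the 10 genes, with points for the limma estimate and lines for the 95% interval of a single gene, beside the median of all genes tested (dashed). The intervals of STMN1, TUBA1B, TUBB4B, TUBA1A and TUBA1C lie under 0, and TUBB2A sits at 0.01.

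Levels of different genes were compared per length, as normalized counts per kilobase of all annotated exons. On this scale the Ctr-KD means were 795 for TUBA1B, 552 for TUBB4B, 417 for TUBB6, 380 for TUBA1A, 242 for TUBA1C, 90.2 for STMN1, 81.7 for TUBB2A, 79.7 for TUBB3, 32 for TUBG1 and 14.5 for TUBB. TUBB2A and TUBB3 overlapped in range over the Ctr-KD libraries, and no other neighbours in this order did. Annotated exons of some genes far exceed their main transcript, 6.25 kb against 1.44 kb for STMN1 and 7.42 kb against 1.71 kb for TUBB3. Per kilobase of the canonical transcript the order changed to TUBA1B (1747), TUBB6 (875), TUBA1A (869), TUBB4B (720), STMN1 (391), TUBA1C (382), TUBB3 (347), TUBB2A (147), TUBG1 (85.8) and TUBB (23.5). There TUBB6 and TUBA1A overlapped in range, and so did STMN1 and TUBA1C. TUBA1B stood first and TUBG1 and TUBB last on both scales. Neither scale was corrected for 150-base windows with an exact copy elsewhere, though the authors kept only uniquely mapped reads. The levels of TUBB2A (48.7% of windows copied) and TUBA1B (19.1%) may therefore be too low, and sums that include them as well.

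Summed per kilobase of exon, the 3 alpha genes had 1460 and 1375 in Ctr-KD and 1056, 1020 and 1125 in NSD2-KD. The groups did not overlap, and the NSD2-KD mean was 75.3% of the Ctr-KD mean (1067 ± 53.4, n = 3, against 1418 ± 60.0, n = 2, exact permutation p = 0.1, two-sided). With 2 against 3 libraries 0.1 is the smallest p that this test can give. The 5 beta genes summed to 1142 and 1149 in Ctr-KD and 919, 876 and 1040 in NSD2-KD, a mean of 82.5% of Ctr-KD (exact permutation p = 0.2), also without overlap. The ratio of alpha to beta was 1.28 and 1.20 in Ctr-KD and 1.15, 1.16 and 1.08 in NSD2-KD (exact permutation p = 0.1). The level of TUBB is in doubt, as given above. The beta sum and this ratio may therefore not reflect levels in the cells. STMN1 per alpha tubulin was 0.0612 and 0.0662 in Ctr-KD and 0.0538, 0.0454 and 0.0628 in NSD2-KD, where NSD2-3 lay inside the range of Ctr-KD (exact permutation p = 0.3). The level of this ratio depended on the scale. Per kilobase of the canonical transcript it was 0.125 and 0.136 in Ctr-KD and 0.111, 0.0936 and 0.129 in NSD2-KD (exact permutation p = 0.3). With 13 such sums, ratios and shares per kilobase of exon, the lowest adjusted p was 0.186.

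**Figure D4:**
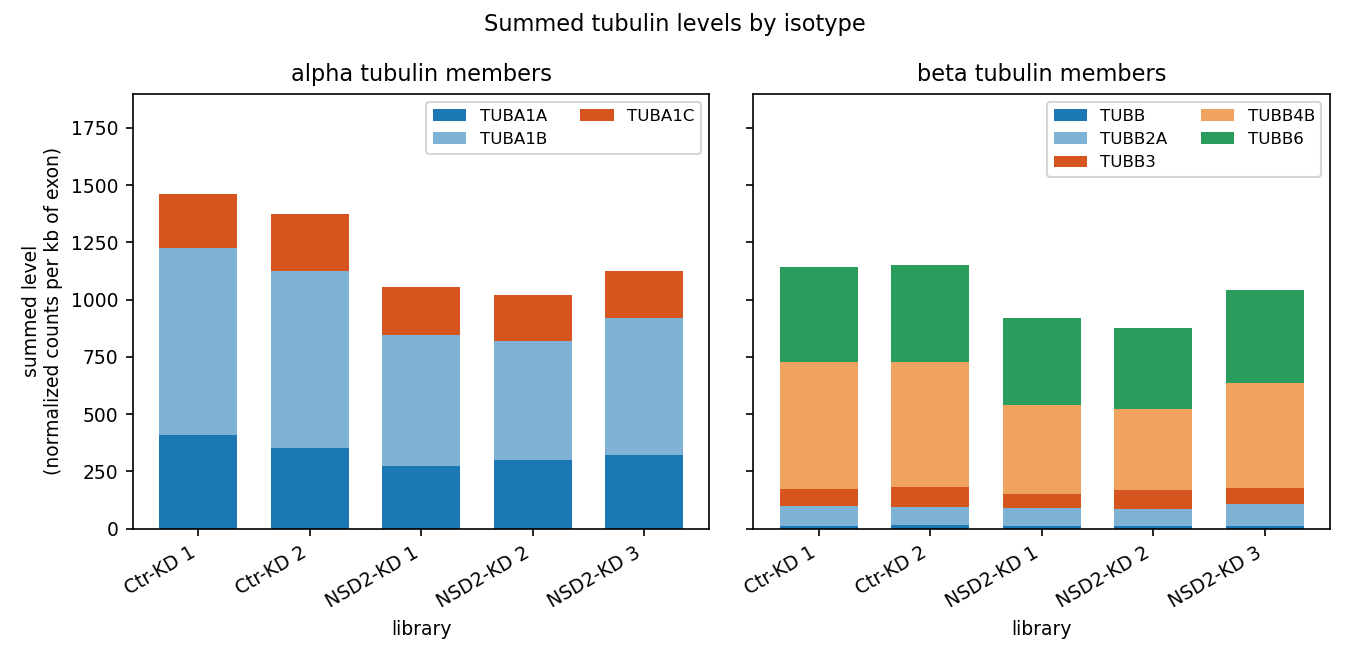
Stacked bars of the summed level (normalized counts per kb of exon) of the alpha tubulin genes on the left and the beta tubulin genes on the right in each of the 5 libraries, coloured by isotype. All NSD2-KD bars are shorter than the Ctr-KD bars, from 1020 to 1125 against 1375 and 1460 for alpha.

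The makeup of the pools was given as a percentage of each pool per kilobase of exon. The beta shares include TUBB at its doubtful level, so they may differ from those in the cells. Shares were also not corrected for 150-base windows with an exact copy elsewhere, 48.7% in TUBB2A and 19.1% in TUBA1B. TUBB4B and TUBB6 had 0%, so the shares of TUBB2A and TUBA1B may be too low. TUBA1B made up 55.8% and 56.4% of the alpha pool in Ctr-KD and 53.9%, 50.9% and 53.5% in NSD2-KD, lower in all 3 (exact permutation p = 0.1). TUBB4B made up 48.7% and 47.7% of the beta pool in Ctr-KD and 42.4%, 40.5% and 44.1% in NSD2-KD, also lower in all 3 (exact permutation p = 0.1). The shares of TUBB6, at 36.2% and 36.7% against 41.1%, 40.4% and 38.8%, and of TUBB2A, at 7.38% and 6.90% against 8.50%, 8.49% and 9.27%, were higher in all NSD2-KD libraries, though their own counts were not. The shares of TUBA1A, TUBA1C, TUBB and TUBB3 overlapped between groups. The order of the beta shares depended on the scale. Per kilobase of the canonical transcript TUBB6 made up 41.4% and 41.5% in Ctr-KD, TUBB4B 34.7% and 33.5% and TUBB3 15.7% and 17.1%. The directions for TUBB4B and TUBB6 were the same on that scale. The share of TUBA1B was also lower in all NSD2-KD libraries there, but with exact permutation p = 0.2.

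The promoters of the 3 genes with the lowest differences are shown to set their sequences side by side, in RefSeq's GRCh38.p14, from 250 bases before to 50 after the first listed start site. All 10 genes matched an entry. Capitals mark 3 kinds of word found on either strand: CCAAT boxes, the core of the cell cycle homology region (TTTGAA) and 4 words of E2F sites, TTTCGCGC, TTTGGCGC, TTTCCCGC and TTTGCCGC.
STMN1, chr1:25906370-25906669, minus strand: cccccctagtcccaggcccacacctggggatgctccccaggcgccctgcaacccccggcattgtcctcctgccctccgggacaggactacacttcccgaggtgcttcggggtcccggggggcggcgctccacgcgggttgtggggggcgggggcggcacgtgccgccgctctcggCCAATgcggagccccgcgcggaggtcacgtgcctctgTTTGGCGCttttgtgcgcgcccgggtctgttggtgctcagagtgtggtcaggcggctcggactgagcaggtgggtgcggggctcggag
TUBA1B, chr12:49131346-49131645, minus strand: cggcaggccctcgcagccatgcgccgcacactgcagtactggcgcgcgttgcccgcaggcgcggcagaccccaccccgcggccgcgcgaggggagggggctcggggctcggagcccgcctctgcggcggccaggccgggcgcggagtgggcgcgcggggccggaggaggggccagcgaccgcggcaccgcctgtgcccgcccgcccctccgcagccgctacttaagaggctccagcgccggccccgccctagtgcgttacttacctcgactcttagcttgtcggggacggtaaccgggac
TUBB4B, chr9:137241037-137241336, plus strand: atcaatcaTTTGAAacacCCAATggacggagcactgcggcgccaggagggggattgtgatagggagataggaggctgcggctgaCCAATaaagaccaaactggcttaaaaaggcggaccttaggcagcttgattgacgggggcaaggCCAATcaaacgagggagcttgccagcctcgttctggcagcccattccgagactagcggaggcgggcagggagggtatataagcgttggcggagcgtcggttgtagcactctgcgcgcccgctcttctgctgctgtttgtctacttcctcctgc
STMN1 holds 1 E2F word and 1 CCAAT, TUBB4B 3 of CCAAT and 1 TTTGAA, and TUBA1B none of these letters in this window. Of all 27305 promoters of this length, 3.33% hold an E2F word, 35.7% CCAAT and 15.4% TTTGAA. Among the other members, TUBG1 holds an E2F word and CCAAT, TUBA1C TTTGAA and CCAAT, TUBA1A and TUBB CCAAT, and TUBB2A, TUBB3 and TUBB6 none. A match is a run of letters and not a measured binding site.

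The genes around tubulin in the microtubule system were listed by role, 149 in all outside the 10, of which 130 were tested. By limma none passed an adjusted p of 0.05, while at an unadjusted p under 0.05 there were 24 lower and 5 higher genes. Over all genes tested, 4.99% were lower and 4.19% higher at that p. Of the 130, 25.4% lay below both Ctr-KD libraries in all of NSD2-KD and 14.6% above. The shares of all genes to set beside this and each list are 13.9% below and 13.8% above. DESeq2 called 7 of the 130 and edgeR none. Their median log2 difference was -0.06. The lists divided as follows.

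Spindle microtubule factors, which bind microtubules mainly in mitosis, stood lowest. Of 20 tested, 17 lay below both Ctr-KD libraries in all of NSD2-KD and 1 above, 14 were lower at an unadjusted p under 0.05, and the median log2 difference was -0.83. FAM83D, which places a kinesin on the spindle, had 81.0 and 102 normalized counts in Ctr-KD and 35, 19.7 and 41.0 in NSD2-KD (log2 difference -1.54, adjusted p = 0.198). ASPM, a spindle pole protein, had 283 and 301 against 110, 67.7 and 143 (log2 difference -1.51, adjusted p = 0.164). GTSE1, a microtubule tip protein, had 107 and 128 against 47.8, 29.5 and 66.4 (log2 difference -1.34, adjusted p = 0.237). In each of these the NSD2-2 library was the lowest, as for STMN1 and TUBB4B. CLTC, the clathrin heavy chain, was the single gene of the list above Ctr-KD in all of NSD2-KD, and its main role is in endocytosis.

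The gamma tubulin ring and augmin list came next, with 11 of 20 tested below both Ctr-KD libraries, 1 above and a median log2 difference of -0.23. MZT1, a small subunit of the ring complex, had 83.8 and 94.6 in Ctr-KD and 28.5, 49.2 and 38.1 in NSD2-KD (log2 difference -1.22, adjusted p = 0.198). HAUS3 and HAUS8, subunits of augmin, which starts microtubules on the side of others, had log2 differences of -1.02 (adjusted p = 0.339) and -0.97 (adjusted p = 0.303). TUBG1 itself overlapped between the groups, as given above. TUBGCP2, a core subunit of the ring, had 276 and 307 against 336, 273 and 301; it was named after its values were seen.

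The genes that fold tubulin or adjust its mRNA showed no shared direction. Of 22 tested in the list of folding and autoregulation, 1 lay below both Ctr-KD libraries and 5 above, none had an unadjusted p under 0.05, and the median log2 difference was -0.03. TTC5, which recognises new tubulin chains during mRNA decay, had 39.1 in both Ctr-KD libraries and 57.1, 48.1 and 43.9 in NSD2-KD (log2 difference 0.33, adjusted p = 0.679). TBCB, a cofactor for alpha tubulin folding, had 183 and 185 against 213, 279 and 212 (log2 difference 0.33, adjusted p = 0.561), and PFDN5, a prefoldin subunit, a log2 difference of 0.22 (adjusted p = 0.640).

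Genes acting on microtubules between divisions were spread on both sides. Of 22 interphase binders tested, 1 lay below both Ctr-KD libraries and 6 above, with a median log2 difference of 0.02. MAP2, a microtubule binder best known from dendrites and also a neuronal marker, had only 7.62 and 10.3 in Ctr-KD and 16.6, 19.7 and 14.6 in NSD2-KD (log2 difference 0.85, adjusted p = 0.424). MAP7D3 had 114 and 123 against 90.2, 64.4 and 103 (log2 difference -0.49, adjusted p = 0.543), and MAPRE3, a plus-end binder, a log2 difference of 0.39 (adjusted p = 0.548). Of 21 dynein and dynactin genes, which make up the motor that moves toward minus ends, 1 lay below and 5 above, with a median of 0.07. Among them DYNLL2 had a log2 difference of -0.43 (adjusted p = 0.516), DYNC1I2 of 0.28 (adjusted p = 0.556) and DYNC1H1 of 0.27 (adjusted p = 0.424). Of 14 tubulin modifying enzymes tested, 1 lay below and none above, with a median of -0.02, and that gene was TTL, the tubulin tyrosine ligase, with a log2 difference of -0.14 (adjusted p = 0.785). Of 6 severing genes, which cut microtubules, the median was -0.31, and FIGN lay below both Ctr-KD libraries (log2 difference -0.46, adjusted p = 0.672). Of 14 other tubulins 4 passed the filter (TUBA4A, TUBB2B, TUBG2 and TUBE1), and all overlapped between groups.

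**Figure D5:**
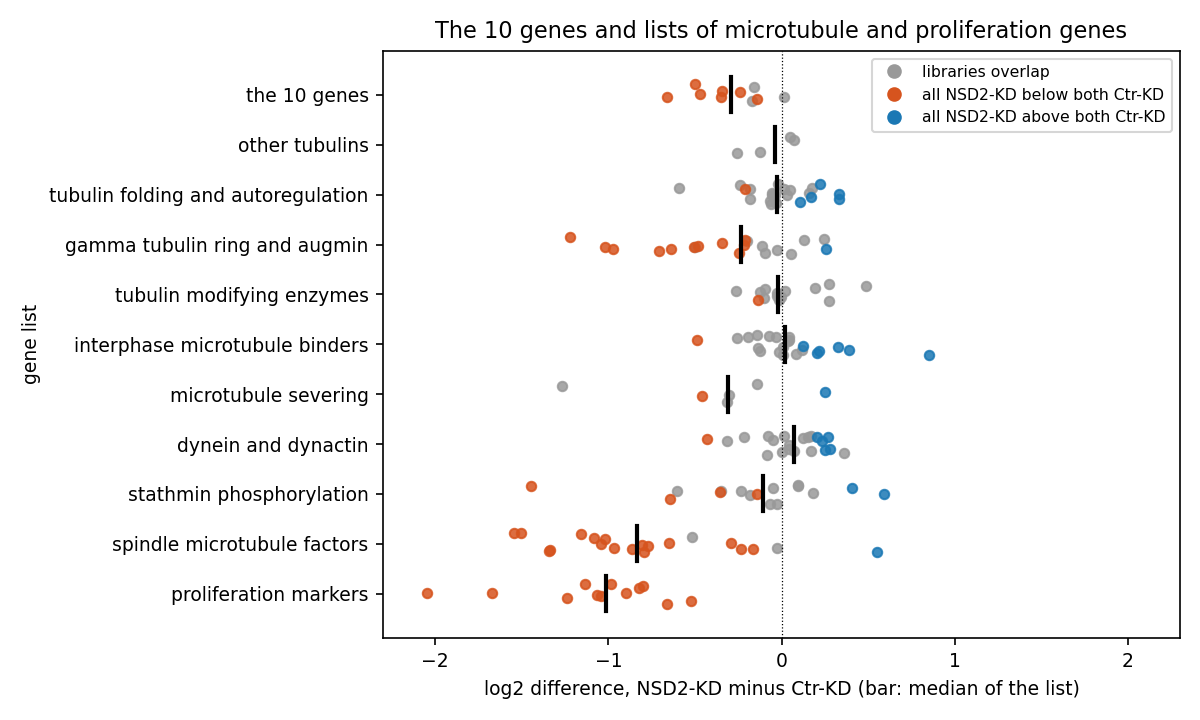
Log2 difference (NSD2-KD minus Ctr-KD) of each tested gene by list, with 1 point per gene, coloured by whether its libraries overlap between groups, and a bar at the median. The 10 genes have a median of -0.29, the spindle factors of -0.83 and the proliferation markers of -1.02, while folding, modifying, interphase and dynein genes lie around 0.

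Markers of proliferation were also lower in the NSD2-KD libraries. Of all genes tested, 13.9% lay below both Ctr-KD libraries in every NSD2-KD library. All 12 lay below both Ctr-KD libraries in every NSD2-KD library, with a median log2 difference of -1.02, and RRM2, a subunit of ribonucleotide reductase, was lower past the threshold at 389 and 412 in Ctr-KD against 122, 128 and 124 in NSD2-KD (log2 difference -1.67, adjusted p = 0.00228). MKI67 had 912 and 967 in Ctr-KD and 481, 217 and 110 in NSD2-KD (log2 difference -2.05, adjusted p = 0.259). MCM6, a helicase subunit of replication, and TOP2A, a topoisomerase, had log2 differences of -1.24 (adjusted p = 0.0790) and -1.13 (adjusted p = 0.201). The NSD2-2 library was the lowest of the 5 for 8 of the 12 markers, as it was for 7 of the 10 genes, while NSD2-3 was the lowest for 3 (MKI67, TOP2A and RRM1) and NSD2-1 for 1 (RRM2). Fewer dividing cells and less of these mRNAs per cell cannot be told apart in bulk libraries, and the part of proliferation in the tubulin and STMN1 values was not tested.

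Genes with the nearest pattern to a member were sought among 5111 genes with a mean of at least 100 normalized counts, by the root mean square difference of log2 values centred on the Ctr-KD mean over the 5 libraries. For STMN1 these were TK1, the thymidine kinase of S phase (0.060), KPNA2, a nuclear import receptor (0.073), and ECT2, which directs cytokinesis (0.079). TK1 had 308 and 292 in Ctr-KD and 179, 163 and 235 in NSD2-KD, with the siRNAs in the same order as for STMN1. For TUBA1B they were AFF4, a subunit of a transcription elongation complex (0.041), DDX39A, an RNA helicase (0.044), and BUB3, a spindle checkpoint protein (0.044). For TUBB they were PFAS, an enzyme of purine synthesis (0.056), BRD8 (0.069) and RANBP1 (0.076), each at 80.3% to 81.9% of the Ctr-KD mean, beside 77.9% for TUBB. The measure covers 5 libraries and says nothing about shared function.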

How the data were processed

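The authors sequenced poly(A) mRNA from IMR-90 cells as 150-base single-end reads, trimmed them with Trimmomatic, aligned them with HISAT2 against hg19, used SAMtools to keep unique alignments, and obtained read counts per gene from featureCounts; the annotation and strand setting are not given in the sources used here. The deposited signal is the read count of each gene divided by the DESeq2 size factor of its library. A table of the authors' own fold changes and p-values was not used. All values were whole multiples of 1 read (100%, tolerance 0.01 reads), and depth came from these reads. Precision is limited by counting error for genes with few reads.

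The main test was limma 3.58.1 (R 4.3.3) on log2(normalized count + 1) with its trend of variance on mean, all 5 libraries, no covariate, genes with a mean of at least 10, and Benjamini-Hochberg adjustment over all of them. Sums and shares were compared by an exact permutation test. The test code was tested on simulated data. Nothing in the labels ties libraries to separate cultures, but the study's methods call the Ctr-KD libraries biological replicates. p-values measure only the spread between these libraries, and a shift shared by all genes is removed by the size factors. Alternatives were edgeR 4.0.16 (TMM) and DESeq2 1.42.0 on the recovered reads, other pseudocounts, filters and scalings, the replicate number as a block and each library left out. Coordinates, lengths and coding starts came from GENCODE on GRCh37, promoters from RefSeq.

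The members and gene lists were chosen with earlier results of these data known. Genes named were the 10 members, WHSC1, and from each list those past the threshold plus up to 3 of the largest differences whose libraries did not overlap between groups. Canonical lengths, sums without TUBB and counts without each library were added after seeing the data. siRNA sequences were not used here. Some genes of the lists are not reported here.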

Additional observations from a re-analysis of the deposited data

How the results depend on the processing

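Over 15 alternatives to the limma comparison, 9 of the 10 genes kept the sign of their difference. TUBB2A turned to -0.10 with the replicate block (over all libraries or shared numbers) and without NSD2-KD replicate 3, and ranged from -0.099 to 0.087 over the libraries left out, with -0.03 without Ctr-KD replicate 2. The log2 difference ranged from -0.81 to -0.51 for STMN1 (adjusted p from 0.0246 to 1.00), from -0.56 to -0.44 for TUBA1B (0.0379 to 1.00) and from -0.57 to -0.39 for TUBB4B (0.0445 to 1.00). With 1 library left out, the log2 difference ranged from -0.53 to -0.16 for TUBB and from -0.81 to -0.51 for STMN1. It ranged from -0.46 to -0.23 for TUBA1A, from -0.27 to -0.07 for TUBB3 and from -0.24 to -0.06 for TUBG1. The range was -0.57 to -0.39 for TUBB4B and -0.19 to -0.09 for TUBB6, and that of TUBB2A is given above.

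The replicate numbers are those of the siRNAs in NSD2-KD, and deviations of same-numbered libraries were uncorrelated (-0.015 and -0.027). With the replicate block, 2 members were called over all libraries (STMN1, adjusted p = 0.0274, and TUBA1B, 0.0428) and 3 over shared numbers (with TUBB4B, 0.0445). The NSD2-3 library has no partner there and adds nothing to the difference. Over all genes the block gave 84 lower and 18 higher over all libraries and 98 and 24 over shared numbers, with 11 and 12 of the listed microtubule genes.

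Beside 6 lower and 4 higher genes in the comparison as reported, limma without the trend gave 1 and 0, edgeR 11 lower, quantile normalization 8 higher, and DESeq2 44 and 14, with 7 of the listed microtubule genes. Leaving out 1 library gave 0 to 22 lower and 0 to 8 higher genes: none without either Ctr-KD library, no higher gene without NSD2-KD replicate 2, and 22 and 8 without NSD2-KD replicate 3, with 0 to 1 listed microtubule genes. The cause was not tested. The sums of the pools moved by less than the spread between libraries under every alternative tried. Without Ctr-KD replicate 1 or 2, the difference in share (NSD2-KD minus Ctr-KD, percentage points) was -0.23 or 0.095 for TUBB beside -0.066, 1.09 or 3.20 for TUBA1C beside 2.14, and 2.52 or -0.17 for TUBA1A beside 1.17, and that of TUBB3 went from 0.65 to -0.23 without NSD2-KD replicate 2.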

Other observations

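Stathmin is switched off by phosphorylation, and 16 genes for kinases and phosphatases known to act on it were tested. Of these, 4 (25.0%) lay below both Ctr-KD libraries in all of NSD2-KD and 2 (12.5%) above, against 13.9% and 13.8% of all genes. The median log2 difference of the 16 was -0.10, and none passed an adjusted p of 0.05 by limma. AURKB, the mitotic kinase of the chromosomal passenger complex, had 80.0 and 102 normalized counts in Ctr-KD and 34.0, 21.8 and 45.9 in NSD2-KD (log2 difference -1.45, adjusted p = 0.201). MAPK8, a stress kinase, had a log2 difference of -0.65 (adjusted p = 0.345) and MAPK13, another, of 0.59 (adjusted p = 0.598). Named after its values were seen, PPP2CA, a catalytic subunit of protein phosphatase 2A, had 357 and 386 in Ctr-KD and 408, 150 and 403 in NSD2-KD, so that the NSD2-2 library alone was low. Its paralog PPP2CB had 291 and 311 against 310, 312 and 341.

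FIGNL1, a relative of the severing enzymes and also named after its values were seen, had 38.1 and 48.4 in Ctr-KD and 38.6, 12 and 10.7 in NSD2-KD. There the libraries of NSD2-2 and NSD2-3 were low and that of NSD2-1 lay within the range of Ctr-KD. CLTC, the clathrin heavy chain, stood at 1633 and 1646 in Ctr-KD and 2609, 2249 and 2366 in NSD2-KD (log2 difference 0.55, adjusted p = 0.145), higher with all 3 siRNAs.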
